A study of Homo sapiens with 32 samples.

Results

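The tripartite motif (TRIM) genes were followed through 4 human cancer cell lines treated with OTS964, an inhibitor of the kinase CDK11. Members were taken by symbol, as every gene named TRIM followed by a number that had a RefSeq transcript in the deposited tables. This gave 75 members among 18854 genes. They were measured through 156 transcripts, of which 129 were curated and 27 predicted, and 39 members had 1 transcript each. A further 50 symbols of this form had no matching transcript, most of them pseudogenes (35) and transcribed pseudogenes (5). A375 is a melanoma line, Cal51 and MDA-MB-231 are breast cancer lines, and DLD1 is a colorectal cancer line. Each was grown as wild-type cells, described by the design text as sensitive to inhibition of CDK11, and as cells with the G579S mutation, described as resistant. All cells received either DMSO, at 0 nM of the drug, or OTS964 at 100 nM for 6 h. The 16 groups held 2 libraries each, 32 in all. The sources used here do not say how the mutation was introduced or whether the G579S cells of a line were 1 clone.

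Most TRIM proteins carry a RING finger, B-boxes and a coiled coil, and work as ubiquitin ligases that choose the substrates to which a ubiquitin-conjugating enzyme passes its ubiquitin. The C-terminal domain sets the class: PRY-SPRY domains bind proteins such as viral capsids and antibodies, PHD and bromodomains read histone tails, and NHL repeats bind RNA. The family is known for restriction of viruses, for tuning innate immune signalling and, through TRIM28, TRIM24 and TRIM33, for control of transcription. CDK11 itself acts in transcription and splicing.

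Several TRIM genes are induced by interferon, and their promoters can show the element that interferon-regulated factors bind. Promoter windows of 300 bases, 250 before and 50 after the start, were taken from RefSeq (GRCh38.p14) for 60 of the 75 members and searched on both strands for GAAA repeated after 2 bases of any kind, with overlapping matches allowed. This motif occurred in 10 of the 60 members, against 4.4% of all 27305 genes and 3.6% of all 35116 windows. It occurred in 6 of the 9 interferon-inducible members with a window. These 6 are shown 5′ to 3′ on the gene's own strand, with the matched 10 bases in capitals (a match that begins with TTTC lies on the other strand). All but TRIM69, whose count rounded to 0 in every library, recur below with values.
TRIM5, chr11:5685082-5685111, minus strand: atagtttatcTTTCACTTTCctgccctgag
TRIM14, chr9:98119229-98119258, minus strand: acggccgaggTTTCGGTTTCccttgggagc
TRIM21, chr11:4393666-4393695, minus strand: cttctgagcgGAAACTGAAAgtgaaatagg
TRIM26, chr6:30213581-30213610, minus strand: tcccgcctgaTTTCAGTTTCcatttcgctg
TRIM34, chr11:5624901-5624930, plus strand: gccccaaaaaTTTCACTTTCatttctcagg
TRIM69, chr15:44736456-44736485, plus strand: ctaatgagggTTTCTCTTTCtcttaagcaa
TRIM21 and TRIM26 each held a further match overlapping the one shown. A match is only a description of these windows.

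The libraries held between 16091376 and 29742687 estimated reads. Levels are given as CPM, a share of the library's counts, scaled by TMM, a method that sets most genes to no change, and as TPM, which also divides by transcript length, where genes are compared with each other. Nothing in the labels shows whether both libraries of a group had a culture of their own, so p-values measure only how far these samples lie apart, and that spread may be technical. Libraries labelled DLD1 wild-type went against their label: 12 melanocyte markers summed to 1380 TPM in both under DMSO, against 37.5 to 40.3 TPM in the DLD1 G579S libraries, and 10 colorectal markers to 24.9 to 40.6 TPM against 1090 to 1120 TPM. They are called libraries labelled DLD1 wild-type, and the main counts of the wild-type response are also given without them. Elsewhere the tissue markers were present under DMSO: 7 of 12 melanocyte markers reached 1 TPM in A375 of both genotypes, 6 to 7 of 10 breast epithelial markers in Cal51 and MDA-MB-231, and 5 of 10 colorectal markers in DLD1 G579S cells. The breast list did not set the breast lines apart, since 6 of its 10 markers also reached 1 TPM in DLD1 G579S cells. Of the colorectal list, 4 markers reached it in Cal51 G579S cells and 3 in Cal51 wild-type cells. The counts do not show the mutation. CDK11B was at 639 ± 47.6 CPM in MDA-MB-231 G579S cells against 59.1 ± 3.88 CPM (SD, n = 2) in the wild-type cells under DMSO, and between 32.5 and 52.4 CPM on average in the other DMSO groups. The TMM factors of treated wild-type libraries ranged from 0.701 to 0.832, and those of all others from 0.96 to 1.166. Scaling to library totals instead moved the median log2 change of all genes in wild-type cells by -0.59. Directions near that size therefore depend on the scaling.

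Without the drug, the family was led by TRIM28, the corepressor that KRAB zinc fingers recruit. Its mean over the 16 DMSO libraries was 541 ± 155 TPM (SD), with single libraries between 323 and 820 TPM. TRIM8, a regulator of cytokine and NF-kB signalling, followed at 93.6 ± 45.5 TPM. The next were TRIM27, a RING ligase found fused to RET in tumours, at 59.4 ± 11.1 TPM, TRIM25, which ubiquitinates the RNA sensor RIG-I, at 51.5 ± 16.8 TPM, and TRIM44, which lacks a RING finger, at 51.4 ± 14.3 TPM (SD, n = 16 each). These last 3 did not differ beyond their spread. In all, 40 members averaged at least 1 TPM and 24 at least 10 TPM. After the filter on low counts, 52 members were tested in the fit of all groups. The other 23 reached at most 0.565 CPM in any library, and 6 of them, TRIM42, TRIM49C, TRIM60, TRIM64C, TRIM69 and TRIM77, had a count that rounded to 0 in every library.

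**Figure D1:**
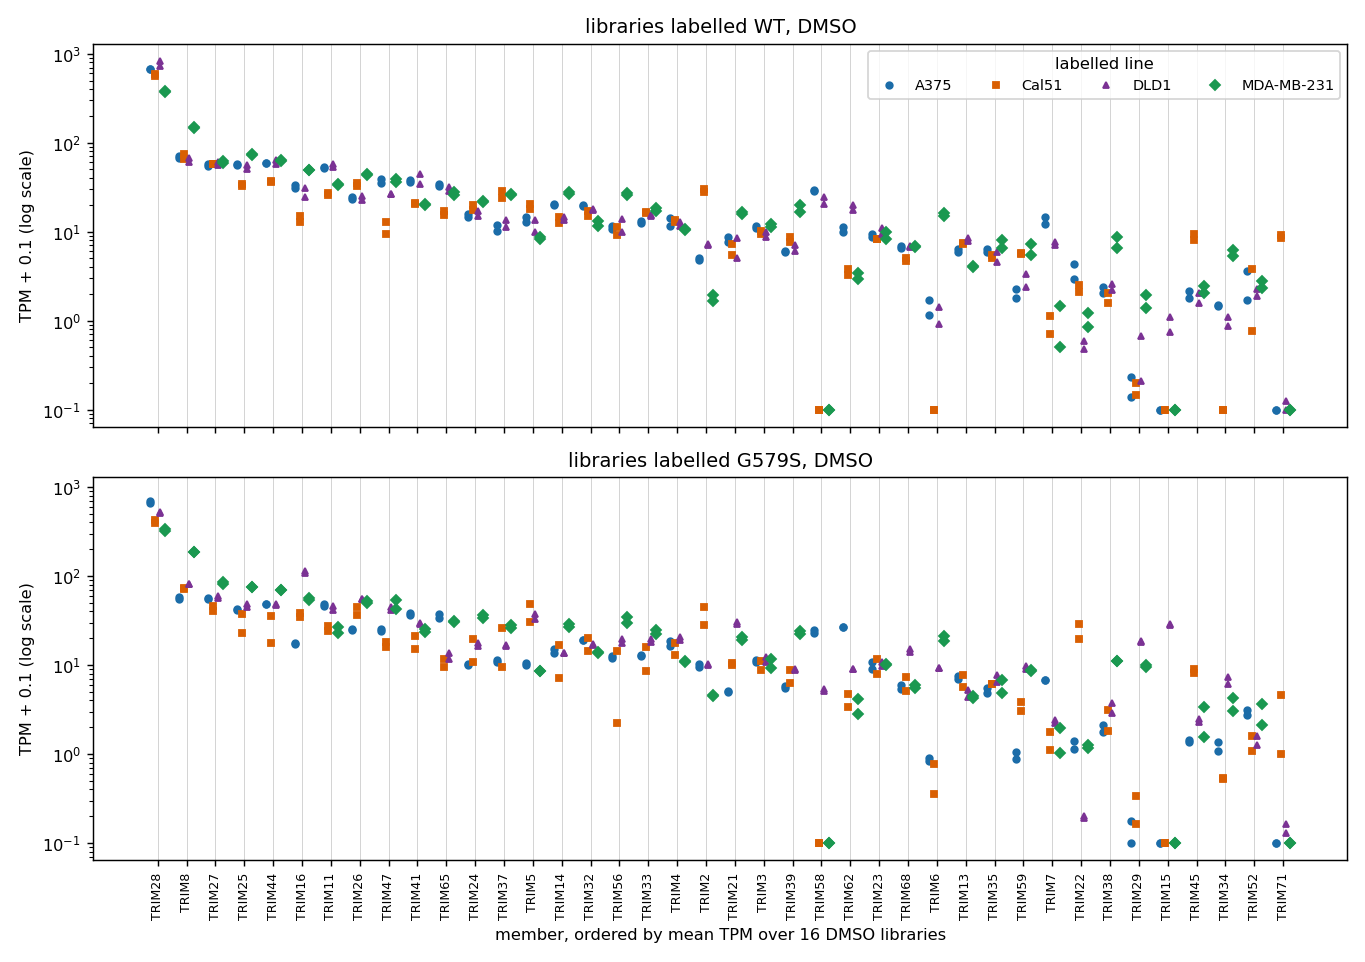
TPM plus 0.1 on a log scale for the 40 members that averaged at least 1 TPM over 16 DMSO libraries, ordered by that mean, with 1 point per library, wild-type labels above and G579S labels below. TRIM28 stood highest in both panels, and TRIM58, TRIM6, TRIM29, TRIM15 and TRIM71 sat near 0 in some lines and well above it in others.

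The lines differed in their TRIM repertoire. Among the G579S cells under DMSO, 44 of 52 members differed over the 4 lines, where 78.8% of all 14318 genes did (edgeR, adjusted p under 0.05). Among A375, Cal51 and MDA-MB-231 wild-type cells 36 of 52 did, against 67.0% of all genes. The members differed about as often as genes in general.

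TRIM16, a RING-less member that acts in autophagy of damaged membranes, had the smallest p among G579S lines (adjusted p = 1.5e-12). Its 2 G579S libraries stood at 178 and 177 CPM in DLD1, 80.4 and 77.6 in MDA-MB-231, 57.1 and 65.4 in Cal51 and 31.4 and 31.0 in A375. In wild-type cells under DMSO A375 lay above Cal51, at 54.0 and 58.0 CPM against 19.0 and 22.3 CPM. MDA-MB-231 wild-type cells had 74.3 and 74.5 CPM. TRIM58, which turns over dynein in maturing red cells, was at 82.2 and 76.7 CPM in A375 and 15.5 and 15.0 in DLD1, and had no count in either DMSO library of Cal51 or MDA-MB-231 (adjusted p = 5e-12). It was thus a gene of A375 and, at a lower level, of DLD1. Where the label reads DLD1 wild-type and melanocyte markers were high, TRIM58 stood at 76.3 and 65.0 CPM, near the 92.6 and 93.2 CPM of A375 wild-type.

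Neighbouring genes on chromosome 11 also set the G579S cells of the lines apart. TRIM5, TRIM6, TRIM34 and TRIM22 lie there near each other, as does the readthrough gene TRIM6-TRIM34. Of these, TRIM5, TRIM34 and TRIM22 were listed as interferon-inducible. TRIM6 was at 31.7 and 36.1 CPM in MDA-MB-231 G579S cells, 17.2 and 17.1 in DLD1, 1.63 and 1.51 in A375 and 1.14 and 0.535 in Cal51 (adjusted p = 1.4e-09). TRIM22 had the reverse order of Cal51 and DLD1, at 46.2 and 39.5 CPM in Cal51 and 0.166 and 0.158 CPM in DLD1 (adjusted p = 3.2e-09). This high level was not that of Cal51 wild-type cells, which had 3.15 and 3.9 CPM, below A375 wild-type at 5.28 and 7.73 CPM. TRIM5, the restriction factor of retroviral capsids, was at 53.9 and 54.0 CPM in Cal51, 44.9 and 41.5 in DLD1, 13.2 and 11.6 in A375 and 7.79 and 7.84 in MDA-MB-231 (adjusted p = 3.6e-09). In wild-type cells the order of Cal51, A375 and MDA-MB-231 was the same, but Cal51 had 24.4 and 22.3 CPM. TRIM65, which ubiquitinates the RNA sensor MDA5, ran differently, with 72.3 and 80.1 CPM in A375, 52.6 and 53.1 in MDA-MB-231 and 20.6 to 26.1 CPM in the other 2 lines (adjusted p = 2.9e-09).

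OTS964 lowered much of the family in wild-type cells. Of 47 members tested across the 4 labelled lines, 30 fell and 2 were higher (edgeR, adjusted p under 0.05), while 32.0% of all 13676 genes fell, 29.9% rose and 61.8% were called in either direction. The median log2 change of the members was -1.07, against -0.06 for all genes. A fall of at least 2-fold was called for 23 members, or 48.9%, and for 22.6% of all genes. Under scaling to library totals 33 members fell and 0 were higher, while 49.7% of all genes fell and 14.1% rose, and 30 members were called under both. Without the libraries labelled DLD1 wild-type, 29 of 45 members fell and 2 were higher, while 29.1% of all 13516 genes fell and 27.1% rose. These are bulk samples, in which fewer cells of a kind and less RNA per cell cannot be told apart.

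**Figure D2:**
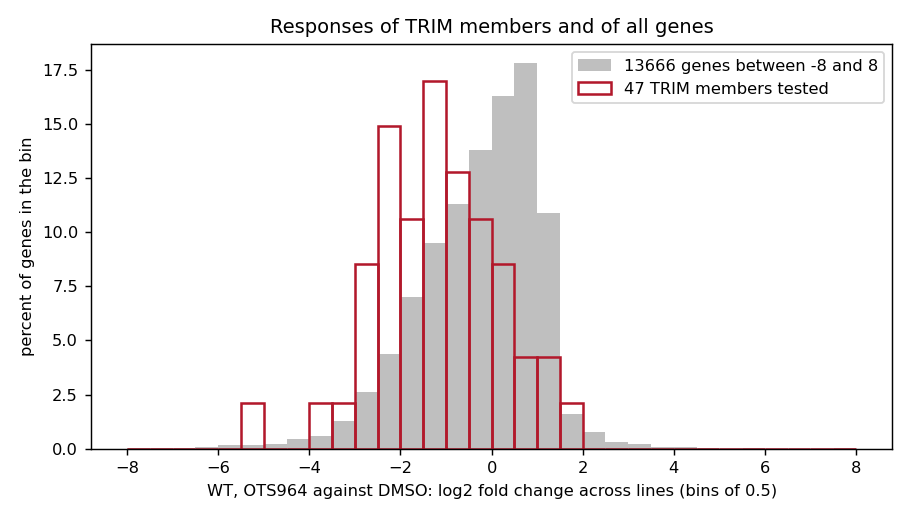
Percent of genes in bins of 0.5 by log2 fold change of wild-type cells under OTS964 against DMSO, with all genes tested as grey bars (10 of 13676 lie beyond -8 or 8 and are not drawn) and the 47 members tested as red outlines. The members lie to the left of the genes at large: 57.4% of them and 26.7% of all genes had a log2 change below -1.

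The pattern recurred line by line. In A375 27 of 52 members were lower and 3 higher, where 25.0% of all genes were lower and 20.8% higher. Cal51 also had 27 and 3 (27.8% and 24.9% of all genes), as did the libraries labelled DLD1 wild-type (27.7% and 22.2%). MDA-MB-231 had 23 and 3 (22.4% and 24.1%). With library totals 2 were higher in A375 and 2 where the label reads DLD1 wild-type (9.37% and 10.4% of all genes). Cal51 and MDA-MB-231 then had 0 higher (11.5% and 11.6% of all genes) and 29 each lower (42.1% and 34.0%). In each labelled line 17 of the 52 members (32.7%) were lower, against 13.3% of 14318 genes, and these were TRIM2, TRIM11, TRIM13, TRIM16, TRIM21, TRIM23, TRIM24, TRIM26, TRIM27, TRIM33, TRIM35, TRIM38, TRIM39, TRIM44, TRIM45, TRIM65 and TRIM68. In A375, Cal51 and MDA-MB-231 alone 18 were lower in each, against 13.6% of all genes. For 13 of 47 members (27.7%) every OTS964 library lay below every DMSO library in CPM, as it did for 10.6% of all genes, and without the libraries in doubt for 14 members and 11.9% of all genes. Every OTS964 library lay above every DMSO library for 0 members and for 5.33% of all genes, and edgeR called 2 members higher.

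**Figure D3:**
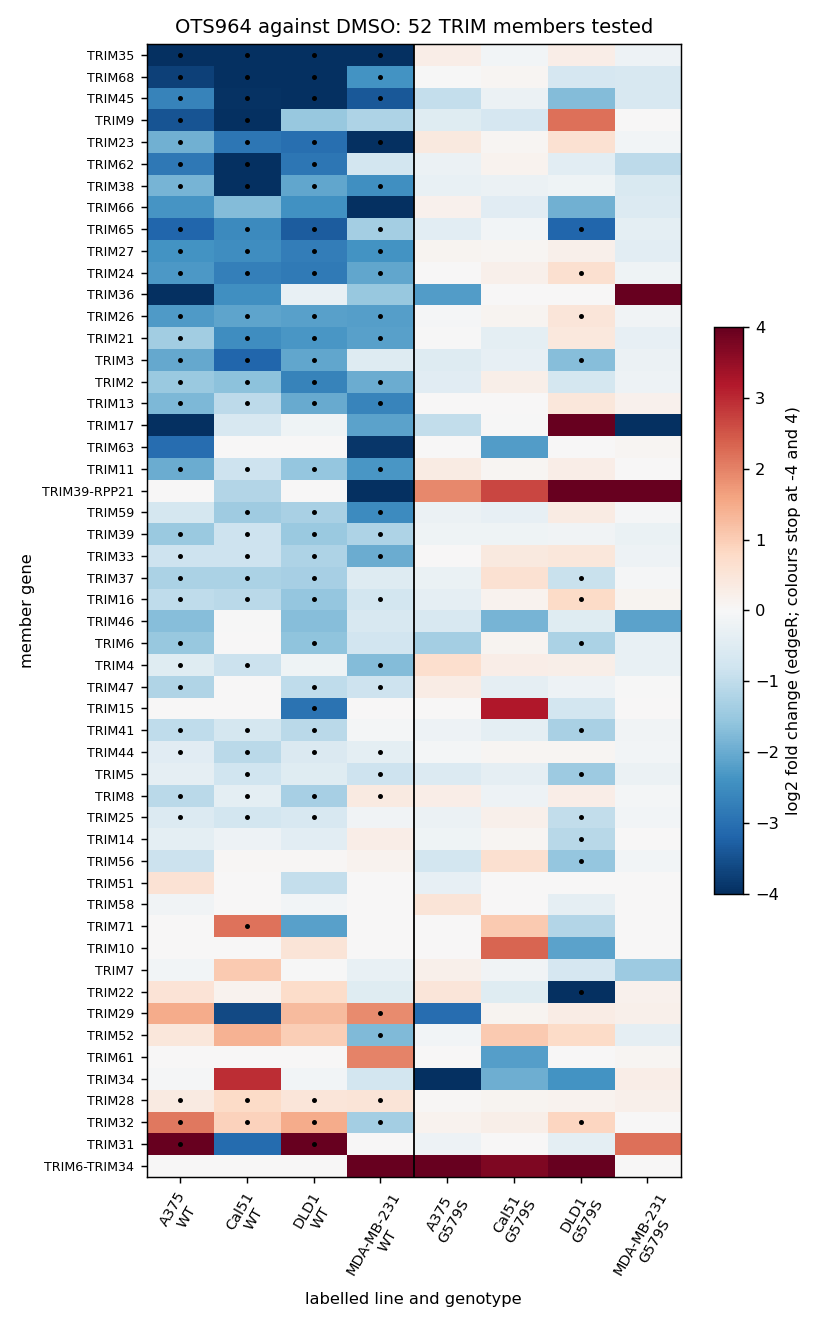
Log2 fold change under OTS964 for the 52 members tested (rows) in each labelled line and genotype (columns), ordered by the mean over the wild-type columns, with a dot where the adjusted p is under 0.05. The wild-type columns are mostly blue, and the G579S columns carry dots only in DLD1. TRIM6-TRIM34 and TRIM39-RPP21 had counts in few libraries, and their strong colours carry no dot.

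TRIM35, a PRY-SPRY ligase, had the largest fall. Over 8 wild-type libraries it ranged from 11.1 CPM through a median of 14.8 to 18.0 under DMSO, and from 0 through 0.168 to 1.13 under OTS964, where 4 libraries had no count. The groups did not overlap, and the log2 change was -5.40 ± 0.75 (SE, adjusted p = 2.1e-05). In MDA-MB-231, where both OTS964 libraries were at 0, it was at least 95.8-fold lower, taking a floor of 3 counts per library. In G579S cells TRIM35 ranged from 10.1 to 18.4 CPM under DMSO and from 8.58 to 21.0 CPM under OTS964.

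TRIM68, a ligase described as a coactivator of the androgen receptor, went from 8.18, 12.7 and 13.5 CPM (lowest, median, highest) to 0.168, 0.692 and 3.25 CPM, a log2 change of -3.94 ± 0.41 (adjusted p = 1.1e-06). Its lowest treated values came from the libraries labelled DLD1 wild-type and its highest from MDA-MB-231. TRIM45, the member with a filamin-type domain, went from 3.12, 4.27 and 17.3 CPM to 0.102, 0.271 and 1.92 CPM (-3.49 ± 0.48, adjusted p = 1.6e-05). Its highest DMSO values were those of Cal51, at 17.3 and 15.2 CPM. TRIM23, which carries an ARF-like GTPase domain and activates the kinase TBK1, went from 16.7, 20.4 and 25.6 CPM to 0, 2.35 and 5.84 CPM (-2.88 ± 0.51, adjusted p = 0.0002). None of these 3 overlapped between treatments.

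Further falls were those of TRIM62, TRIM65, TRIM38 and TRIM66. TRIM62, a ligase linked to epithelial polarity, went from 5.85, 15.4 and 46.4 CPM to 0, 3.37 and 8.23 CPM (-2.56 ± 0.45, adjusted p = 0.00017), and the groups overlapped, since 1 treated library labelled DLD1 wild-type, at 8.23 CPM, lay above the DMSO libraries of Cal51 and MDA-MB-231. In MDA-MB-231 it stood at 6.87 and 5.85 CPM under DMSO and at 4.17 and 3.39 CPM under OTS964. TRIM65 went from 27.9, 54.1 and 71.0 CPM to 4.15, 7.13 and 20.0 CPM without overlap (-2.55 ± 0.22, adjusted p = 1.6e-07). TRIM38, an inducible member that dampens Toll-like receptor signalling, went from 4.54, 7.68 and 26.4 CPM to 0.192, 1.90 and 4.27 CPM (-2.50 ± 0.31, adjusted p = 6.8e-06). TRIM66, a testis-enriched PHD-bromodomain protein, was scarce. It went from 0, 3.01 and 5.07 CPM to 0, 0.337 and 1.32 CPM (-2.54 ± 1.03, adjusted p = 0.045), and its call was lost when any 1 of 12 of the 16 libraries was left out, with adjusted p up to 0.16 without 1 DMSO library of those labelled DLD1 wild-type.

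**Figure D4:**
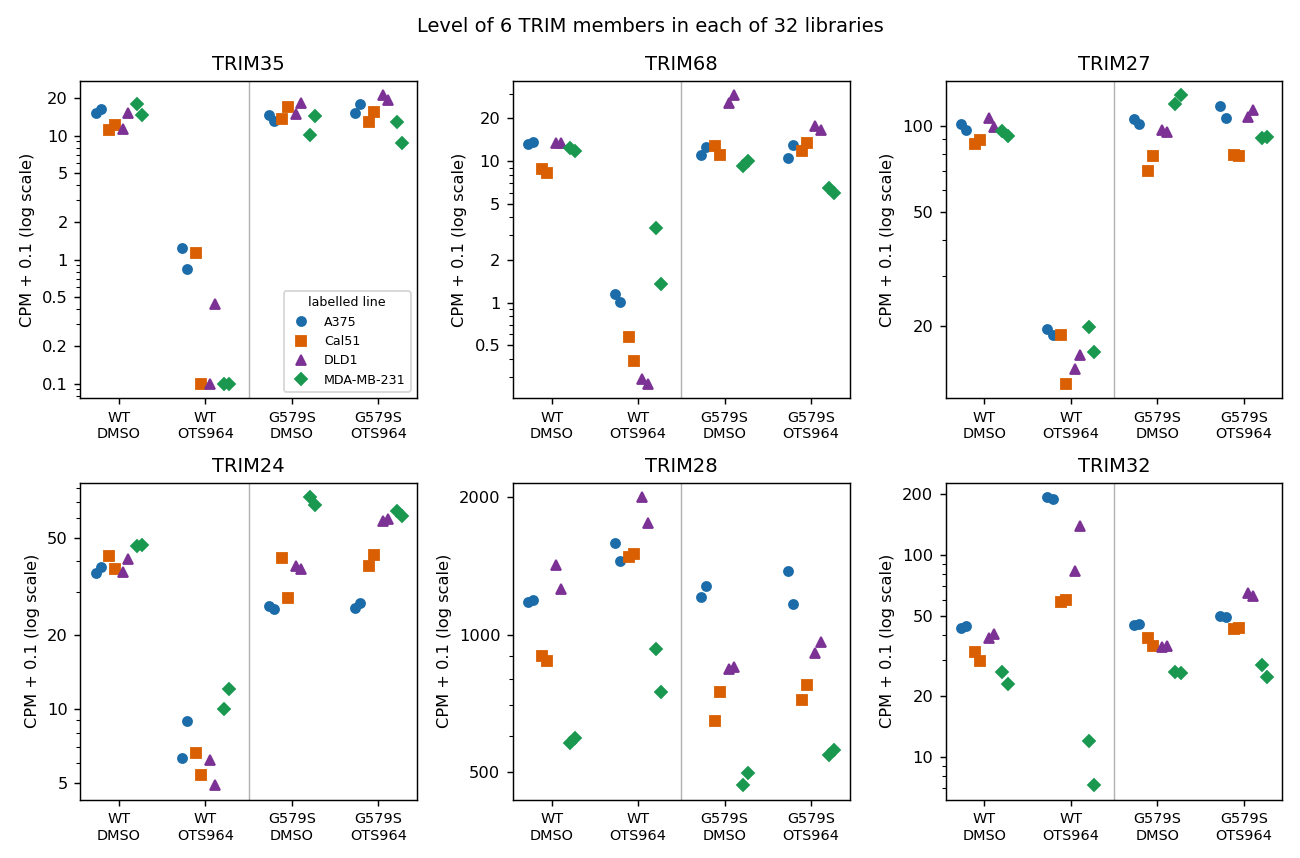
CPM plus 0.1 on a log scale for 6 members in each of the 32 libraries, by genotype and treatment, with 1 point per library and shape and colour for the labelled line. TRIM35, TRIM68, TRIM27 and TRIM24 drop in every wild-type group and did not pass a test for a fall in G579S cells, TRIM28 shows a shift whose direction changes with the scaling, and TRIM32 goes up in 3 wild-type groups and down in MDA-MB-231.

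By class, the 4 PHD-bromodomain members, which read chromatin, divided. TRIM24, a reader of histone tails, fell from 35.9, 39.4 and 46.6 CPM to 4.78, 6.34 and 12.0 CPM (-2.43 ± 0.13, adjusted p = 3.9e-09), and TRIM33, a SMAD4 ligase, from 65.6, 76.3 and 86.0 CPM to 16.8, 37.3 and 48.8 CPM (-1.17 ± 0.22, adjusted p = 0.00036). TRIM66 fell as given above. TRIM28 was the exception. It read 580, 1040 and 1420 CPM under DMSO and 748, 1490 and 2000 CPM under OTS964, with overlap across lines, and its log2 change was 0.57 ± 0.07 with TMM (adjusted p = 3.3e-06), -0.02 with library totals (adjusted p = 0.64) and -0.28 on log2(TPM + 0.5) with limma (adjusted p = 9.8e-06). Its direction is thus set by the scaling, and its change lay above the median of all genes both with TMM (-0.06) and with library totals (-0.65). In TPM the summed level of all members was 1130, 1294 and 1518 (lowest, median, highest) in wild-type DMSO libraries and 639.9, 717.8 and 833.6 in wild-type OTS964 libraries, without overlap. Without the libraries in doubt the medians were 1208 and 660.0 TPM. Leaving out TRIM28, the sum was 561.9 to 831.5 TPM under DMSO and 164.6 to 341.3 TPM under OTS964. A fall in TPM was common to most genes: limma on log2(TPM + 0.5) called 60.7% of all 13676 genes lower and 7.88% higher.

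The NHL class, whose repeats bind RNA, also divided. TRIM2 and TRIM3, known from neurons, fell by 1.88 ± 0.45 and 1.87 ± 0.30 on the log2 scale (adjusted p = 0.0021 and 8.3e-05). TRIM71, the stem-cell member lin-41, was called higher (1.88 ± 0.50, adjusted p = 0.01), but only Cal51 held it, at 14.8 and 13.6 CPM under DMSO and 61.9 and 66.3 CPM under OTS964. All other wild-type libraries had at most 0.0466 CPM, and the call was lost without any 1 of the 4 Cal51 libraries, with adjusted p from 0.056 to 0.073, and with library totals (1.15, adjusted p = 0.083). The fourth, TRIM32, is described with the lines that differed.

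The PRY-SPRY class was taken as the members left once all other classes were set apart. The members listed as RING-less (TRIM14, TRIM16, TRIM29 and TRIM44) were set apart whatever their C-terminal domain, and the readthrough TRIM39-RPP21 was kept. Of 24 members of this class tested, 16 fell and 0 rose, with a median of -1.21, against 32.0% of all genes lower, 29.9% higher and a median of -0.06. With library totals 17 fell, against 49.7% of all genes. Beside those above, TRIM27 went from 86.8, 96.7 and 107 CPM to 12.5, 17.3 and 19.8 CPM (-2.47 ± 0.09, adjusted p = 4.2e-10). No treated library reached the lowest DMSO library. TRIM21, the cytosolic receptor for antibodies, went from 5.19, 8.59 and 15.8 CPM to 0.66, 2.42 and 3.61 CPM (-2.05 ± 0.24, adjusted p = 4.3e-06). TRIM11, which takes part in the removal of misfolded proteins, went from 36.0, 64.6 and 90.3 CPM to 8.99, 20.7 and 32.4 CPM (-1.62 ± 0.19, adjusted p = 3e-06). The remaining classes were small. Both members anchored in the endoplasmic reticulum membrane fell, TRIM13 by 1.82 ± 0.26 and TRIM59 by 1.43 ± 0.30 on the log2 scale, as did the centrosome regulator TRIM37 by 1.04 ± 0.14 (adjusted p = 2.5e-05, 0.0008 and 1.5e-05). Of the 4 members listed as RING-less TRIM16 and TRIM44 fell, by 1.04 ± 0.10 and 0.57 ± 0.10 (adjusted p = 3.9e-07 and 0.00012). TRIM14 and TRIM29 did not pass the test (-0.14 ± 0.09 and 1.17 ± 0.58).

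Interferon-inducible members did not move as 1 set. Of 9 tested, 5 fell and 0 rose with TMM, with a median of -0.46, and 7 fell with library totals. The shares of all genes lower were 32.0% and 49.7%. Of those whose promoter windows are printed above, TRIM21 fell as given, TRIM26 fell by 2.14 ± 0.08 on the log2 scale (adjusted p = 5e-10) and TRIM5 by 0.57 ± 0.17 (adjusted p = 0.0088), while TRIM14 (-0.14 ± 0.09) and TRIM34 (-0.09 ± 0.44) did not pass. The inducible members without a match spanned a like range, from TRIM38 at -2.50 to TRIM56 at -0.10 ± 0.17. TRIM22, which has no window in the table, did not pass (0.29 ± 0.36). TRIM5 fell by 0.73 with curated transcripts alone and then missed the threshold (adjusted p = 0.30).

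Of the 5 members highest in TPM, TRIM25, TRIM44 and TRIM8 fell by less than 2-fold with TMM, and by 1.06, 1.16 and 1.16 on the log2 scale with library totals. TRIM25 went from 102, 201 and 236 CPM to 62.4, 133 and 218 CPM (-0.46 ± 0.06, adjusted p = 1.5e-05), and TRIM44 from 101, 181 and 198 CPM to 47.7, 127 and 156 CPM. Within each line both treated values of TRIM25 were below both DMSO values. TRIM8 went from 92.5, 109 and 211 CPM to 34.9, 61.7 and 299 CPM (-0.56 ± 0.17, adjusted p = 0.011), and missed the threshold once the libraries with the label DLD1 wild-type were left out (-0.35, adjusted p = 0.11). TRIM27, of like level, fell more than 2-fold under both scalings. Across the 47 members the log2 change and the DMSO level in log2 TPM had a Spearman correlation of 0.02, against 0.25 over 13676 genes. With the largest number of exons of a gene's coding transcripts it was -0.26 over the members and -0.14 over 13260 genes, and with the span of the gene -0.13 and -0.25. These are descriptions across genes of the same libraries.

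For 17 of 52 members the wild-type response differed among A375, Cal51 and MDA-MB-231, where it did for 27.3% of all genes. TRIM32, an NHL ligase mutated in a limb-girdle muscular dystrophy, stood out with opposite directions (adjusted p = 1.1e-07). It went from 43.5 and 44.5 CPM to 193 and 188 CPM in A375, and from 38.5 and 40.3 CPM to 82.7 and 139 CPM where the label reads DLD1 wild-type. In Cal51 it went from 33.0 and 29.8 CPM to 58.4 and 59.5 CPM, and in MDA-MB-231 from 26.2 and 22.7 CPM down to 11.8 and 7.10 CPM. The log2 changes were 2.12 ± 0.19 in A375 (adjusted p = 2.9e-08) and -1.36 ± 0.20 in MDA-MB-231 (adjusted p = 1e-05), and kept their sign and call with library totals, at 1.68 and -1.88. In Cal51 the change of 0.91 ± 0.19 shrank to 0.20 with library totals (adjusted p = 0.41).

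TRIM11 fell in each line but to different degrees, by 1.98 ± 0.13 in A375, 0.83 ± 0.13 in Cal51 and 2.34 ± 0.14 in MDA-MB-231 on the log2 scale (adjusted p of the difference = 1.3e-05). TRIM65 fell by 3.17 ± 0.17 in A375, 2.55 ± 0.18 in Cal51 and 1.35 ± 0.16 in MDA-MB-231, where 18.3 and 20.0 CPM remained of 47.3 and 50.6 CPM (adjusted p of the difference = 2.4e-05). TRIM8 fell in A375 from 116 and 110 CPM to 58.1 and 48.8 CPM, while MDA-MB-231 had 208 and 211 CPM under DMSO and 299 and 244 CPM under OTS964 (adjusted p of the difference = 0.00012). That last change was 0.37 with TMM (adjusted p = 0.042) and -0.14 with library totals (adjusted p = 0.46), so TRIM8 in MDA-MB-231 has no direction that holds under both. The 2 MDA-MB-231 OTS964 libraries were further from each other than most pairs, with a chi-square per degree of freedom of 85.7 where the groups ranged from 5.68 to 86.9.

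G579S cells showed little of this. Across the 4 lines 1 of 51 members passed, where 2.82% of 13984 genes did. It was TRIM5, at 7.79, 27.3 and 54.0 CPM under DMSO and 5.70, 11.8 and 43.3 CPM under OTS964 (-0.66 ± 0.15, adjusted p = 0.036). The call was lost without the DLD1 libraries (-0.39, adjusted p = 0.13) and without any 1 of 9 of the 16 libraries, and with curated transcripts alone the change was 0.46 (adjusted p = 0.74). At an unadjusted p under 0.05 there were 19 members (22.4% of all genes), DESeq2 called 9 (12.8%), and limma on TPM called 4 (7.27%). By line, edgeR called 0 of 52 members in A375, Cal51 and MDA-MB-231, where it called 0.657%, 0.391% and 0.307% of all genes. At an unadjusted p under 0.05 these lines had 9, 3 and 7 members (9.02%, 13.5% and 12.2% of all genes). DESeq2 called 5, 0 and 3 members (3.01%, 3.86% and 2.91% of all genes), and limma on TPM 3, 0 and 4 (2.23%, 1.32% and 2.44%). The Cal51 DMSO libraries of this genotype had the highest chi-square per degree of freedom of all groups, 86.9, and 5 members passed in Cal51 without the first of them.

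DLD1 G579S cells did respond, with 10 members lower and 4 higher of 52, where 12.7% of all genes were lower, 10.8% higher and 23.5% called in all. TRIM65 went from 21.7 and 26.1 CPM to 2.86 and 2.47 CPM (-3.16 ± 0.18, adjusted p = 1.7e-09), TRIM5 from 44.9 and 41.5 CPM to 17.0 and 14.4 CPM (-1.46 ± 0.23, adjusted p = 0.00014), and TRIM25 from 159 and 151 CPM to 76.1 and 82.4 CPM (-0.97 ± 0.10, adjusted p = 8.8e-07). With curated transcripts alone the change of TRIM5 was -0.33 (adjusted p = 0.91). The 4 higher members were TRIM32 (0.85 ± 0.19), TRIM16 (0.75 ± 0.11), TRIM24 (0.64 ± 0.17) and TRIM26 (0.49 ± 0.10), with adjusted p between 6.3e-05 and 0.0085. TRIM24 and TRIM26 did not pass with library totals (0.39 and 0.25, adjusted p = 0.13 and 0.12) or limma, and TRIM26 not with curated transcripts (0.16, adjusted p = 0.94). TRIM22 was also called lower, but from 0.166 and 0.158 CPM, or 3 counts in each DMSO library, to no count. The DMSO counts were thus no higher than the floor of 3 counts, so no fold is given. Whether the G579S response differed between DLD1 and the other lines was not tested.

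The wild-type response minus the G579S response, tested in 1 model over all libraries, passed for 27 of 52 members, where it did for 50.1% of all 14318 genes. It was negative for 26 members and 25.8% of all genes, and positive for 1 member and 24.3% of all genes. The members' median was -0.98. Among the largest differences were those of TRIM35 (-5.44 ± 0.61, adjusted p = 5.3e-08), TRIM68 (-3.6 ± 0.41, 7.2e-08), TRIM23 (-3.16 ± 0.46, 2.2e-06) and TRIM24 (-2.65 ± 0.17, 6.4e-12). For TRIM27 it was -2.51 ± 0.12 and for TRIM26 -2.29 ± 0.11. TRIM5 and TRIM25, which fell in wild-type cells, gave differences of 0.04 ± 0.22 and -0.23 ± 0.15 that did not pass. TRIM28 was the 1 positive difference with TMM, at 0.41 ± 0.08 (adjusted p = 0.00013), and -0.03 with library totals (adjusted p = 0.76). Without the DLD1 libraries 26 of 49 members passed, 25 of them among the 27, where 47.2% of all 14049 genes passed.

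Under DMSO the G579S cells of a line differed from its wild-type cells in a few members. In A375 3 of 52 were higher and 2 lower, where 4.39% of all genes were higher and 5.38% lower. In Cal51 8 were higher and 2 lower (10.3% and 6.74% of all genes), and in MDA-MB-231 2 were higher and 1 lower (2.74% and 4.55%). With 1 library left out the counts were 1 to 2 in A375 and 0 to 1 in MDA-MB-231, so most calls in A375 and MDA-MB-231 need all 4 libraries. In Cal51 the counts were 4 to 14. They were 6 and 4 without the first and the second wild-type library, and 6 without the second G579S library. In DLD1 25 passed (49.2% of all genes), a contrast in which the labelled genotype and the identity of the cells cannot be told apart, and it is not described further.

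Cal51 G579S cells had more of the chromosome 11 neighbours. TRIM6 went from no count to 1.14 and 0.535 CPM, at least 5.31-fold higher. TRIM34 went from no count to 0.496 and 0.642 CPM, at least 3.61-fold higher. The TRIM34 values were 10 and 12 counts, and its call was lost in 4 alternative runs. The 2 Cal51 G579S DMSO libraries also had the highest chi-square per degree of freedom of all groups, 86.9. TRIM22 went from 3.15 and 3.9 CPM to 46.2 and 39.5 CPM (3.6 ± 0.54, adjusted p = 0.00013). TRIM5 was higher there as well, at 53.9 and 54.0 CPM against 24.4 and 22.3 CPM (1.21 ± 0.23, adjusted p = 0.0011), but with curated transcripts alone it did not pass (1.42, adjusted p = 0.35). TRIM6 and TRIM34 share their sequence with the readthrough gene, so reads could be split between them.

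In A375 G579S cells TRIM51, a PRY-SPRY member, stood at 5.09 and 6.13 CPM against 0.503 and 0.445 CPM (3.55 ± 0.59, adjusted p = 0.0046), TRIM62 at 64.9 and 65.6 CPM against 23.3 and 26.0 CPM (1.4 ± 0.44, adjusted p = 0.048), and TRIM16 at 31.4 and 31.0 CPM against 54.0 and 58.0 CPM (-0.84 ± 0.11, adjusted p = 3.9e-05). The call of TRIM62 was lost with library totals (adjusted p = 0.056), no filter (0.054), curated transcripts (0.069), the replicate block (0.053) and without any 1 of the 4 libraries (up to 0.27). The melanocyte markers were also higher in these cells, at 1730 to 1760 TPM against 923 to 943 TPM. Their part in the TRIM values was not tested. In MDA-MB-231 G579S cells TRIM29, a RING-less protein of squamous epithelium, stood at 9.80 and 10.3 CPM against 2.04 and 1.44 CPM (2.53 ± 0.75, adjusted p = 0.048), TRIM24 at 73.1 and 68.1 CPM against 46.1 and 46.6 CPM (0.61 ± 0.17, adjusted p = 0.029), and TRIM11 at 30.1 and 35.4 CPM against 48.0 and 46.3 CPM (-0.52 ± 0.13, adjusted p = 0.014). TRIM29 had a change of 0 with curated transcripts alone (adjusted p = 1), and its call was lost with the replicate block (adjusted p = 0.057).

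Transcripts of a gene can move apart even where the gene as a whole falls. Of 24 members with several transcripts past the filter, 3 changed in usage in wild-type cells, where 6.09% of 6403 genes did (edgeR diffSpliceDGE, Simes). TRIM13, the ligase of the endoplasmic reticulum, was clearest (adjusted p = 0.00022). Its curated transcript of 6755 bases ranged from 0.888 through 1.47 to 2.22 TPM under DMSO and was listed at 0 in each of the 8 wild-type OTS964 libraries, while in G579S cells under OTS964 it ranged from 0.266 to 1.47 TPM. Relative to the gene it changed by -5.28 on the log2 scale (adjusted p = 0.0002). The transcript of 7290 bases read 0.308, 0.398 and 1.96 TPM under DMSO and 0.259, 0.504 and 1.23 TPM under OTS964, a relative change of 1.81 that did not pass (adjusted p = 0.12).

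**Figure D5:**
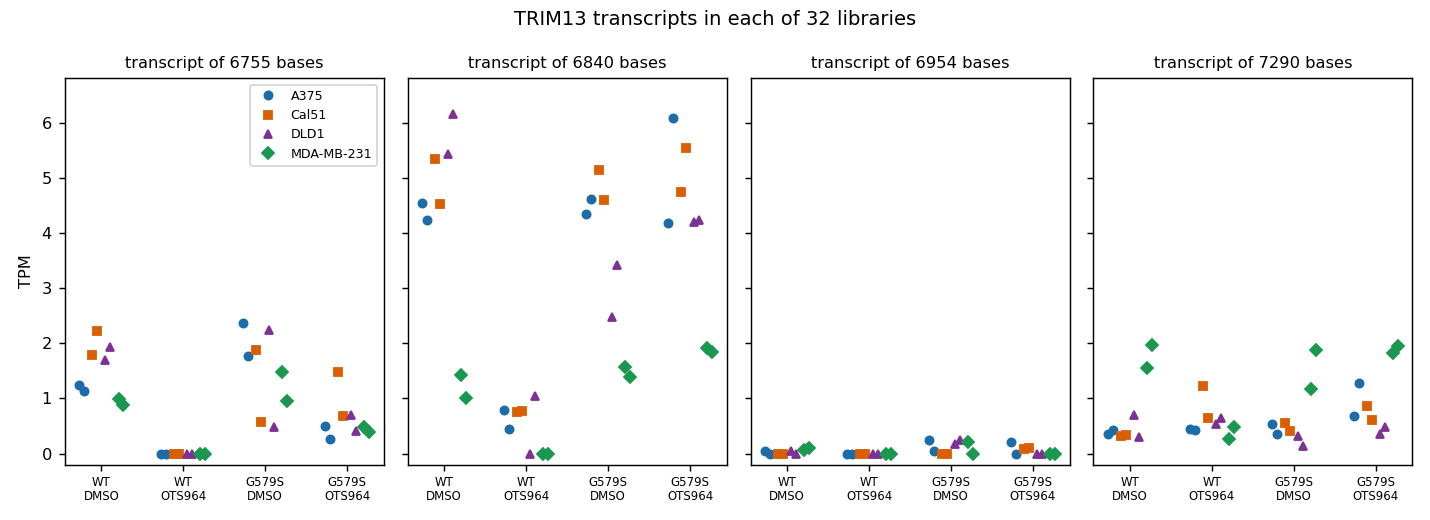
TPM of the 4 curated TRIM13 transcripts in each of 32 libraries, by genotype and treatment, with 1 point per library. The transcript of 6755 bases is at 0 in each wild-type OTS964 library and above 0 in each of the other 24, and the transcript of 6840 bases is the largest in most DMSO libraries.

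TRIM26 had the smallest Simes p (adjusted p = 0.00018), from transcripts that were mostly predicted. One of 3242 bases read 0, 0 and 0.385 TPM under DMSO and 0, 1.83 and 4.24 TPM under OTS964 (relative change 6.70, adjusted p = 7.6e-05), and the curated one of 3606 bases read 1.53, 5.42 and 6.53 TPM and then 0, 0 and 0.55 TPM (relative change -3.40, adjusted p = 0.028). With curated transcripts alone the call for TRIM26 was lost (adjusted p = 0.30), and only TRIM13 remained. Without the libraries labelled as DLD1 wild-type the same 3 members passed, where 3.06% of all genes did. TRIM66 passed narrowly (adjusted p = 0.048) on a transcript at or below 0.125 TPM, and TRIM14, the next by p, did not pass (adjusted p = 0.16).

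Genes that work with the family moved in part. Of 5 tested relatives that carry other names 3 fell in wild-type cells, PML, which builds nuclear bodies, by 1.57 ± 0.19, MID2 by 1.97 ± 0.57 and RNF135, a RIG-I ligase, by 1.59 ± 0.26 on the log2 scale (adjusted p = 5.7e-06, 0.0077 and 0.0001). Of 12 partners in innate sensing 8 fell and 0 rose with TMM (32.0% and 29.9% of all genes), and 10 fell with library totals (49.7% of all genes). Without the libraries in doubt 7 fell and 1 rose (29.1% and 27.1% of all genes). They included TBK1, the kinase that phosphorylates IRF3, by 2.88 ± 0.22, TRAF6 by 2.53 ± 0.21 and the adaptor MAVS by 1.41 ± 0.12 (adjusted p = 4.4e-08, 1.2e-07 and 2e-07).

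The enzymes upstream of the ligases divided. Of 16 ubiquitin-activating and -conjugating enzymes 8 were higher and 3 lower with TMM, while 2 were higher and 7 lower with library totals, so their balance depends on the scaling. Of all genes 29.9% were higher and 32.0% lower with TMM, and 14.1% and 49.7% with library totals. UBA1, the main activating enzyme, had a change of 1.02 ± 0.07 (adjusted p = 1.9e-08), from a mean of 646 to 1270 CPM, and UBE2W, which modifies protein N-termini, fell by 2.02 ± 0.39 (adjusted p = 0.00038). Of 10 partners of TRIM28 in silencing, 4 were higher and 3 lower with TMM and 3 higher and 4 lower with library totals. The histone methyltransferase SETDB1 fell by 1.28 ± 0.18 and its cofactor ATF7IP by 1.78 ± 0.13, while MORC2, an ATPase that acts with them, changed by 3.48 ± 0.47, from a mean of 1.37 to 13.4 CPM (adjusted p = 2.6e-05, 2.7e-08 and 1.7e-05).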

How the data were processed

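The 32 libraries came from RNeasy-extracted RNA and a SMARTer mRNA preparation, per the labels' protocols. Each deposited table lists transcripts with estimated counts, not normalized, and with TPM, which the authors scaled for length and depth, per the file headers. No source used here names the quantification tool. Of genome builds, only GRCm38 and mm10 (mouse) stand in the submitters' processing notes, although the identifiers are human RefSeq. Coordinates are printed only for promoter windows, from RefSeq. Of 87398 identifiers 42587 (48.7%) were matched to symbols. The unmatched ones, mostly predicted, held 12.44% of reads on average and were left out. Counts were summed per gene and rounded, so close copies (TRIM6, TRIM34 and their readthrough, TRIM39 and TRIM39-RPP21) may share reads.

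Genes were tested over the whole table with edgeR 4.0.16 in R 4.3.3 (quasi-likelihood, robust, TMM, filterByExpr by group, Benjamini-Hochberg at 0.05), with line as a block across lines, and 1 fit of 16 groups within lines. DESeq2 1.42.0 and limma 3.58.1 on log2(TPM + 0.5) were alternatives, beside library totals, no filter, curated transcripts alone, a replicate block and leaving out libraries. The scripts were tested on simulated data. Full values are given for the members with the largest wild-type changes of 1 sign in all 4 labelled lines, the 5 highest by TPM, and those leading each other comparison by size or p. The members, lists and rules were chosen with earlier results of these data known. At the smallest matched library, 14333298 reads, a floor of 3 counts applies to a gene at 0. Floors cover counting error only. The descriptions of wild-type cells by line, overlap, summed TPM and list without the libraries labelled as DLD1 wild-type were chosen after seeing the data.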

Additional observations from a re-analysis of the deposited data

Results flagged for a closer look

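The wild-type response differed among A375, Cal51 and MDA-MB-231 for 17 of 52 members in a test of the difference itself (edgeR). It did for 27.3% of all 14318 genes. The adjusted p was 1.1e-07 for TRIM32, 1.3e-05 for TRIM11, 2.4e-05 for TRIM65, 0.00012 for TRIM8, 0.00038 for TRIM3 and 0.00053 for TRIM38. It was 0.001 for TRIM4, 0.0039 for both TRIM62 and TRIM68, 0.0047 for TRIM35, 0.0076 for TRIM25 and 0.0098 for TRIM41. It was 0.012 for TRIM47, 0.018 for TRIM44, 0.025 for TRIM59, 0.029 for TRIM13 and 0.036 for TRIM52.

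The response of wild-type cells minus that of G579S cells passed its test for 27 of 52 members (edgeR, adjusted p under 0.05). It passed for 50.1% of all 14318 genes. The log2 differences of these members follow. The largest were -5.72 for the sparse readthrough TRIM39-RPP21 (call lost with DESeq2, adjusted p = 0.076, without DLD1 libraries, and without any 1 of 6 libraries, up to 0.13), -5.44 for TRIM35, -3.6 for TRIM68 and -3.16 for TRIM23. Between -3 and -2 lay TRIM45 (-2.66), TRIM24 (-2.65), TRIM27 (-2.51), TRIM9 (-2.42), TRIM26 (-2.29), TRIM62 (-2.19), TRIM38 (-2.18), TRIM13 (-2.02) and TRIM21 (-2.0). Between -2 and -1 lay TRIM11 (-1.85), TRIM65 (-1.70), TRIM2 (-1.65), TRIM59 (-1.43), TRIM33 (-1.39), TRIM16 (-1.24), TRIM3 (-1.23), TRIM39 (-1.07) and TRIM4 (-1.01). Smaller differences were those of TRIM37 (-0.94), TRIM47 (-0.71), TRIM8 (-0.67) and TRIM44 (-0.61). TRIM28 alone was positive with TMM (0.41), and was -0.03 with library totals.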

How the results depend on the processing

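The count of members called in wild-type cells across lines was 32, where 61.8% of all genes were called. It lay between 30 and 37 under every alternative run, 31 with a replicate block among them. The differences between the genotypes' responses gave 27, where 50.1% of all genes were called, and lay between 26 and 29. The calls in G579S cells were less stable. Across lines, 1 member (2.82% of all genes) became 6 with library totals (5.94%), 9 with DESeq2 (12.8%) and 4 with limma (7.27%). The count was 0 with curated transcripts, with a replicate block or without DLD1 libraries. It lay between 0 and 8 without 1 library (8 without the second Cal51 G579S DMSO library). In A375 G579S cells 0 (0.657% of all genes) became 2 with library totals (1.05%), 5 with DESeq2 (3.01%) and 3 with limma (2.23%). In MDA-MB-231 0 (0.307% of all genes) became 3 with DESeq2 (2.91%) and 4 with limma (2.44%). In Cal51 0 (0.391%) became between 0 and 5 without 1 library (5 without the first Cal51 G579S DMSO library). For the genotypes under DMSO, A375 had 5 members (9.77% of all genes), and 10 with DESeq2 or limma (14.9% and 15.0%). It had 3 with no filter or a replicate block, and 1 to 2 without 1 library. Cal51 had 10 (17.0% of all genes), 6 with curated transcripts and 4 to 14 without 1 library. MDA-MB-231 had 3 (7.3% of all genes), 6 with limma (12.7%) and 0 to 1 without 1 library. Transcript usage gave 3 (6.09% of all genes) and 1 with curated transcripts. Across lines, the values that changed sign were those of TRIM28 in wild-type cells (-0.02 with library totals, -0.28 with limma), TRIM28 in the difference of responses (-0.03 and -0.28) and TRIM5 across G579S lines (0.46 with curated transcripts). TRIM8 in MDA-MB-231 wild-type cells also did (0.37, and -0.14 and -0.41 with the same alternatives). The replicate block ended the calls of TRIM66 (adjusted p = 0.055, and 0.073 for its transcripts, leaving 2 members), TRIM5 across G579S lines (0.057), TRIM4 (0.051) and TRIM62 (0.053) between A375 genotypes and TRIM29 between those of MDA-MB-231 (0.057, leaving 2 members). The replicate numbers gave no pairing, since 7 of 120 pairs of groups deviated together at r over 0.1 (range -0.25 to 0.26). The cause of these changes was not tested. Members at or below 0.565 CPM could not be tested at this depth.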
